A study of Mus musculus with 8 samples.

Results

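The Rab GTPases of membrane traffic were followed in red pulp macrophages of the mouse spleen after septic or sham surgery. Members were chosen by symbol and by a floor on the counts: every gene row whose Ensembl identifier maps to a mouse symbol of the form Rab plus a number, with an optional letter and digit, and that held at least 10 counts in at least 4 of the 8 libraries. The floor was met by 45 of 59 Rab symbols, out of 55414 gene rows of which 14024 met the same floor. The floor reads counts and not the difference between groups. The 14 Rab genes below it, which are not described further, were Rab3b, Rab3c, Rab4a, Rab9b, Rab15, Rab17, Rab25, Rab26, Rab33a, Rab36, Rab39b, Rab40b, Rab42 and Rab44. Just inside it were Rab27b, which reached 10 counts in 5 libraries, Rab19 in 6 and Rab3a in 7, and just outside were Rab42 in 3, Rab33a in 2 and Rab4a in 1. Each of the 3 members nearest the floor reached 10 counts in at least 2 libraries of both groups. All 45 members also passed the low-count filter of the test across all genes.

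Red pulp macrophages clear old erythrocytes from the blood and return the iron. They were sorted by flow cytometry from the spleens of C57BL/6J mice of wild-type genotype, taken 2 h after surgery. In the CLP group (4 libraries) the surgery was cecal ligation and puncture, a sepsis model in which gut bacteria leak into the peritoneal cavity, and in the Sham group (4 libraries) it was the control operation. No age, sex or other treatment is given in the labels, nor whether any 2 libraries came from different mice. The p-values therefore describe the spread among these libraries, and part of that spread may be technical. In a bulk sample, fewer cells of a type and less RNA per cell cannot be told apart.

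Rab proteins are small GTPases that mark membranes and direct vesicles between compartments. A guanine nucleotide exchange factor (GEF) loads a Rab with GTP on its membrane, where it recruits effectors such as tethers, motors and sorting complexes. A GTPase-activating protein (GAP), usually with a TBC domain, ends that state, and GDP dissociation inhibitors (GDI) carry the inactive, prenylated Rab through the cytosol. In macrophages, a newly formed phagosome first carries Rab5 proteins of early endosomes and then Rab7 of late endosomes and lysosomes as its content is degraded. Recycling Rabs return receptors to the surface, and secretory Rabs bring cytokines, granules and surface receptors to the plasma membrane. Roles below follow these compartments, although several Rabs act at more than 1 of them.

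Total counts were 15392992 to 25665633 per library, and 1 CPM (counts scaled to library size by the TMM method) stood for 15.1 to 27.6 reads. All 10 red pulp macrophage markers tested were present. Their summed level was 41728 to 47533 CPM in CLP and 35379.7 to 43937 CPM in Sham. Of these markers 5 were called higher (Adgre1, Vcam1, Spic, C1qa and Csf1r, beside 19.8% of all genes) and 1 lower (Slc40a1, beside 23.5%). Of the 5, Vcam1 and C1qa lost their call in 3 and 5 of the fits without 1 library (Vcam1 without CLP replicates 1 or 2 or Sham replicate 2, C1qa without CLP replicates 1, 2 or 4 or Sham replicates 2 or 3; highest edgeR adjusted p = 0.0618 and 0.0762). With totals alone only Spic was higher (0.58 on the log2 scale), the other 4 lay between -0.02 and 0.13, and Slc40a1 and Cd163 (-0.48) were lower. The TMM factors were 0.873 to 0.915 in CLP and 1.078 to 1.154 in Sham, so that scaling to library totals alone moved the median log2 fold change of 14004 genes from -0.05 to -0.37, a shift of -0.32. Small rises below are therefore given under both scalings.

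The promoters of the 4 Rab genes that rose about 2-fold with every CLP library above every Sham library, and of the Rab gene that fell most, are shown so that genes that moved together can be set side by side. Each window runs from 250 bases before to 50 after the start site, 5′ to 3′, from RefSeq on GRCm38.p6, and is not the build of the counts, mm39. Capitals mark the E-box CACGTG.
Rab20 (chr8:11478591-11478890, minus strand): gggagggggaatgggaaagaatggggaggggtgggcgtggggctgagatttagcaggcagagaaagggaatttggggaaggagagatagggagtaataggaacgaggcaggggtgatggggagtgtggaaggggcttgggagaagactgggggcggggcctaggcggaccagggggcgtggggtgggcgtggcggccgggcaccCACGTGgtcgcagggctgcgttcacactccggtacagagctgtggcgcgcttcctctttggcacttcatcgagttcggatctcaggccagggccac
Rab8b (chr9:66919656-66919955, minus strand): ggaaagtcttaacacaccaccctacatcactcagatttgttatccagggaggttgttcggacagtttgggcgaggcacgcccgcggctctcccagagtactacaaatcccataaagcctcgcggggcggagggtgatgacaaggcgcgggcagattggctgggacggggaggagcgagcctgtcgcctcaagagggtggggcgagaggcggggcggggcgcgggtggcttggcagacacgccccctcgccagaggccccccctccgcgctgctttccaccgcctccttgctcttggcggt
Rab10 (chr12:3309920-3310219, minus strand): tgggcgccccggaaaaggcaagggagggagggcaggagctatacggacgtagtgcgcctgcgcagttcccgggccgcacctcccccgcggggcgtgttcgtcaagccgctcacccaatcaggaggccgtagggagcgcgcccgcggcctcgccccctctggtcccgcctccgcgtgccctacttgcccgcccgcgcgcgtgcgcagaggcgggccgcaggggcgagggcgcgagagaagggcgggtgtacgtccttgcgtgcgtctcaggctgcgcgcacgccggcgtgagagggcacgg
Rab12 (chr17:66519621-66519920, minus strand): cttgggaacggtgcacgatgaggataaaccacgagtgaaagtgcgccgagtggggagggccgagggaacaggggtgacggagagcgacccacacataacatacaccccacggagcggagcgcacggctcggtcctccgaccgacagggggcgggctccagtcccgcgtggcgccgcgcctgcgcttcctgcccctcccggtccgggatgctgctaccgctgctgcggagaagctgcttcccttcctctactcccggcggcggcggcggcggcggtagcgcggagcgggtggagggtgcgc
Rab39 (chr9:53706183-53706482, minus strand): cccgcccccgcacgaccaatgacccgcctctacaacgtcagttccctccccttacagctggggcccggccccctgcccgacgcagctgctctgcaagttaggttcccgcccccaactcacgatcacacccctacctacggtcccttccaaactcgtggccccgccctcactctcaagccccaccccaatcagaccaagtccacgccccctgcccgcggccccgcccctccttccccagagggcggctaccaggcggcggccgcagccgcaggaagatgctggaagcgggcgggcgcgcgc
The windows held 64.3% to 74.7% G and C. The E-box occurred in the Rab20 window only among these 5. Over the 38 of 45 members that matched a RefSeq entry there were 47 windows, and 6 of them (12.8%), those of Rab5a, Rab20, Rab21, Rab23, Rab24 and Rab27a, held CACGTG on either strand, against 7.15% of all 32851 windows. Of these 6 genes 3 were called higher in CLP (Rab5a, Rab20 and Rab21), 1 lower (Rab23) and 2 not called. Over all genes 19.8% were called higher and 23.5% lower. Rab5a was not called with library totals (log2 fold change 0.07, edgeR adjusted p = 0.461). A link between the motif and the calls was not tested. The AP-1 motif TGANTCA was in 1 window (2.13%, Rab34), against 7.81% of all windows. The CRE motif TGACGTCA was in 1 (2.13%, Rab5a), against 1.79%. A match to the kappaB motif, searched by name, was in 2 windows (4.26%, Rab11a and Rab28), against 8.46% of all, and in none of the 5 shown. These are matches of letters in a fixed window, searched on both strands, and no overlap between motifs was removed.

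In CLP, 14 of the 45 Rab genes were higher and 7 lower in edgeR's quasi-likelihood test (adjusted p below 0.05 over 14004 genes), and 24 were not called. That is 46.7% of the members, close to the 43.3% of all genes called in either direction. Over all genes 19.8% were called higher and 23.5% lower. Of the members 3 were called and at least 2-fold higher and 5 at least 2-fold lower, where the shares over all genes were 6.3% and 8.36%. The CPM values of the groups did not overlap for 19 of 45 members, against 41.5% of all genes. The median log2 fold change was 0.06 for the members and -0.05 for all genes. With library totals, 5 members were higher (Rab20, Rab21, Rab12, Rab8b and Rab10) and 19 lower, and over all genes 9.18% were higher and 46.0% lower. Counted in both directions together with TMM scaling, the share of members called stood near that of all genes. The split into higher and lower moved with the scaling, from 14 and 7 to 5 and 19.

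**Figure D1:**
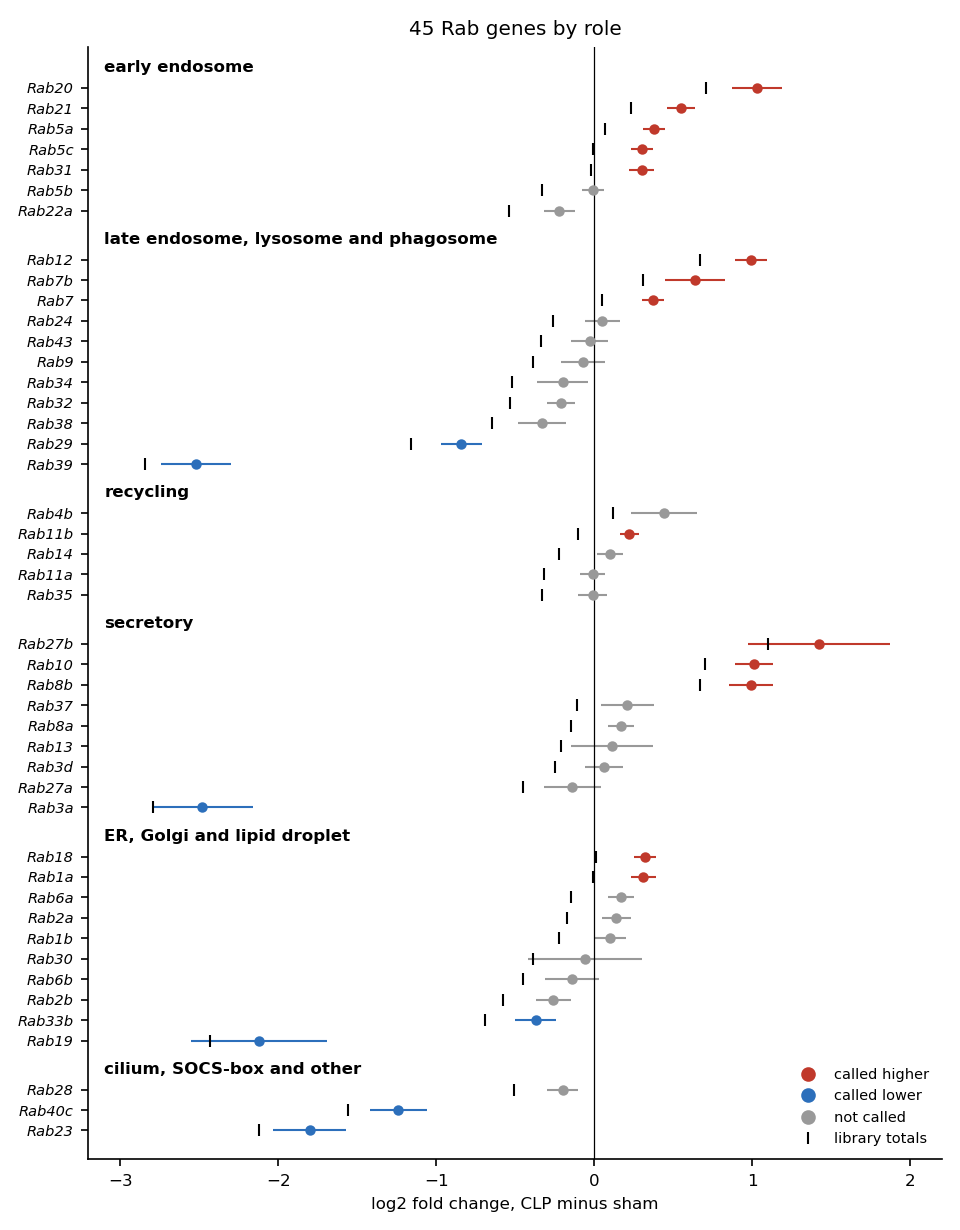
Log2 fold change (CLP minus Sham, horizontal axis) of the 45 Rab genes, grouped by role; points are edgeR estimates with TMM scaling, horizontal bars are 1 SE, and black ticks are the estimates with library totals. The early endosome group has 5 of 7 genes called higher and 0 lower with TMM scaling, and 2 higher and 2 lower with library totals. Over all genes 19.8% were higher and 23.5% lower with TMM scaling, and 9.18% and 46.0% with library totals. Rab39, Rab3a and Rab19 lie beyond -2 on the log2 scale.

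Of the early endosome Rabs, 5 of 7 tested were higher and 0 lower in edgeR with TMM scaling (0 lower at an unadjusted p under 0.05 and 0 with DESeq2), beside 19.8% of all genes called higher, with a median log2 fold change of 0.30. With library totals 2 were higher (Rab20 and Rab21) and 2 lower (Rab5b and Rab22a), beside 9.18% and 46.0% of all genes. Rab20, which acts on phagosomes and endosomes of macrophages, was at 233, 212, 211 and 210.2 CPM in CLP replicates 1 to 4 and at 108, 116, 131 and 70.3 CPM in the Sham libraries. Every CLP library lay above every Sham library, and Sham replicate 4 was the lowest. The mean went from 106 ± 25.9 to 216 ± 11.1 CPM (SD, n = 4 each). The log2 fold change was 1.03 (SE 0.16, edgeR adjusted p = 0.000667) and 0.90 without Sham replicate 4. Rab20 shares 356 exon bases (25.6% of its exon length) with the opposite-strand transcript E230013L22Rik, which rose from 15.8 ± 3.40 to 33.4 ± 2.37 CPM (log2 fold change 1.08, edgeR adjusted p = 0.000126). The library kit marks strand per the labels, but no source used here gives the strand setting of the counting. Reads from the shared bases are therefore of uncertain origin.

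Rab21, which controls integrin uptake and early endosome traffic, was at 151, 149.8, 132 and 149 CPM in CLP and at 106, 97.1, 109 and 84.1 CPM in Sham. The groups did not overlap. Its log2 fold change was 0.55 (SE 0.09, edgeR adjusted p = 0.000597), and scaling to library totals left 0.23 (edgeR adjusted p = 0.0317). Rab5c, the most abundant early endosome Rab and one of the trio of Rab5 proteins that drive early endosome fusion, was at 339.6, 320.3, 302 and 339 CPM in CLP and at 288, 252, 255 and 259 CPM in Sham (log2 fold change 0.30, SE 0.07, edgeR adjusted p = 0.00594). Rab5a rose by 0.38 (SE 0.07, from 53.6 ± 2.04 to 69.9 ± 4.10 CPM, edgeR adjusted p = 0.00123). Its relative Rab5b averaged 82.3 ± 4.22 CPM (Sham) and 81.6 ± 3.66 CPM (CLP) (log2 fold change -0.01, SE 0.07). Rab31, which works between the trans-Golgi network and endosomes, rose by 0.30 (SE 0.08, from 122 ± 10.9 to 151 ± 8.75 CPM), and the closely related Rab22a had -0.22 (SE 0.10, edgeR adjusted p = 0.112; it was called lower, adjusted p = 0.0323, without CLP replicate 3). The rises of Rab5a, Rab5c and Rab31 belong to 7 small ones that depend on the scaling and are taken up below.

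Of 11 late endosome, lysosome and phagosome Rabs tested, 3 were higher and 2 lower (45.5% called, near the 43.3% of all genes), with a median log2 fold change of -0.07. With library totals 1 was higher (Rab12) and 7 were lower, beside 9.18% and 46.0% of all genes. Rab39, which acts on endosomes and phagolysosomes and has been linked to caspase-1, had the lowest log2 fold change of the 45 genes. It was at 2.82, 3.53, 5.70 and 3.71 CPM in CLP and at 19.5, 19.5, 22.5 and 29.5 CPM in Sham. All 4 Sham libraries lay far above all 4 CLP libraries. Its mean went from 22.8 ± 4.72 to 3.94 ± 1.24 CPM, a log2 fold change of -2.52 (SE 0.22, edgeR adjusted p = 1.02e-05, and -2.84 with library totals).

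Rab12, which directs transferrin receptors to lysosomes, moved the other way. It was at 71.7, 66.8, 86.5 and 90.8 CPM in CLP and at 41.9, 39.0, 39.6 and 38.0 CPM in Sham, so the groups were far apart and the Sham libraries close together. The log2 fold change was 0.99 (SE 0.10, edgeR adjusted p = 2.51e-05) and 0.67 with library totals. Rab29, which acts at the trans-Golgi network and on stressed lysosomes and recruits the kinase LRRK2, was at 19.0, 18.9, 12.8 and 20.1 CPM in CLP and 29.6, 30.4, 34.7 and 32.4 CPM in Sham. It fell by 0.84 on the log2 scale (SE 0.13, edgeR adjusted p = 0.000491), again without overlap. Rab7, the most abundant gene of the group and the Rab of late endosome and lysosome fusion, was at 239, 227, 241 and 233 CPM in CLP and 198, 174, 176 and 179.9 CPM in Sham (log2 fold change 0.37, SE 0.07, edgeR adjusted p = 0.00104), but at 0.05 with library totals. Rab7b, which returns cargo from late endosomes to the Golgi, was at 14.5, 9.05, 13.9 and 16.5 CPM in CLP and 7.31, 10.2, 9.85 and 7.40 CPM in Sham, with 1 CLP library inside the Sham range. Its log2 fold change of 0.64 (SE 0.19, edgeR adjusted p = 0.0206) was not called without CLP replicate 1 (adjusted p = 0.0527), without CLP replicate 4 (0.0703) or without Sham replicate 1 (0.0506), nor with library totals (0.184). The other 6, Rab9, Rab24, Rab32, Rab34, Rab38 and Rab43, were not called, with log2 fold changes of -0.33 (Rab38) to 0.05 (Rab24). Rab24, linked to autophagy, shares 62.4% of its exon length with Prelid1 on the opposite strand, and Rab43 shares 75.4% with a same-strand gene model, so their counts are uncertain. The same limit holds for Rab4b, which shares 65.0% with the same-strand model Gm21983, and for Rab2b, which shares 59.3% with Gm43766 on the opposite strand; both of those models have 0 counts in every library.

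**Figure D2:**
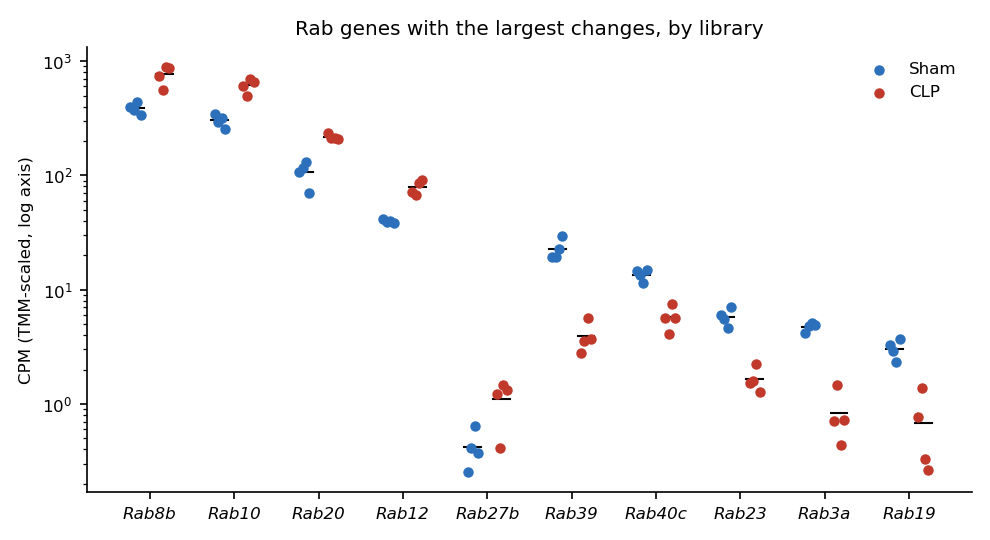
CPM (TMM-scaled, log axis) of 10 Rab genes in each of the 4 Sham and 4 CLP libraries; points are libraries and black bars are group means. Rab8b, Rab10, Rab20 and Rab12 are higher in every CLP library, Rab39, Rab40c, Rab23, Rab3a and Rab19 are lower in every CLP library, and the groups overlap for Rab27b.

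Recycling Rabs showed small differences. In edgeR 1 of 5 tested was higher and 0 were lower (0 lower at an unadjusted p under 0.05 and 0 with DESeq2). That is 20.0% called, where 43.3% of all genes were called in either direction and 19.8% higher. The median log2 fold change was 0.10. Rab11b, of the slow recycling endosome, was at 137, 129, 130.1 and 132 CPM in CLP and 119, 109.7, 114 and 111 CPM in Sham. The groups did not overlap, and the rise was 0.22 on the log2 scale (SE 0.06, edgeR adjusted p = 0.0139), but -0.10 with library totals, and it was not called without a filter on low counts (adjusted p = 0.0994). Rab11a, its close relative, averaged 52.9 ± 4.57 CPM (Sham) and 52.7 ± 2.94 CPM (CLP) (log2 fold change -0.01, SE 0.08). Rab14, which acts between endosomes and the Golgi and was the most abundant recycling Rab, was at 319.9, 309, 356 and 335 CPM in CLP and 335, 308, 305 and 283 CPM in Sham, overlapping ranges (log2 fold change 0.10, SE 0.08, edgeR adjusted p = 0.314). Rab4b, of fast recycling, was at 5.32, 3.27, 3.89 and 3.84 CPM in CLP and 2.61, 3.34, 2.91 and 3.12 CPM in Sham, and was not called (log2 fold change 0.44, SE 0.21, edgeR adjusted p = 0.105). Rab35, another fast-recycling Rab, had -0.01 (SE 0.09). With library totals Rab11a, Rab14 and Rab35 were called lower, beside 46.0% of all genes.

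Of 9 secretory Rabs tested, 3 were higher and 1 lower (44.4% called, near the 43.3% of all genes), with a median log2 fold change of 0.17. With library totals 2 were higher (Rab8b and Rab10) and 1 lower (Rab3a), beside 9.18% and 46.0% of all genes. Rab8b, of transport to the plasma membrane, was at 746, 561, 884 and 869 CPM in CLP and at 397, 373, 437 and 336 CPM in Sham. The groups did not overlap, and the mean rose from 386 ± 42.2 to 765 ± 149 CPM, a log2 fold change of 0.99 (SE 0.14, edgeR adjusted p = 0.00026, and 0.67 with library totals). Rab10, which carries cargo including TLR4 to the macrophage surface, was at 602, 494, 702 and 651 CPM in CLP and at 346, 294, 316 and 256 CPM in Sham. It too was without overlap, with means of 303 ± 37.6 CPM (Sham) and 612 ± 88.8 CPM (CLP) and a log2 fold change of 1.01 (SE 0.12, edgeR adjusted p = 6.8e-05, and 0.70 with library totals). The antisense transcript Rab10os shares 4.1% of the exon length of Rab10 and was at 20.5 ± 2.93 and 25.5 ± 1.74 CPM. CLP replicate 2 was the lowest CLP library for both genes. Rab8a, the near relative of both, was at 78.7, 78.6, 81.3 and 78.2 CPM in CLP and 79.3, 65.1, 67.6 and 69.6 CPM in Sham, and was not called (log2 fold change 0.17, SE 0.08, edgeR adjusted p = 0.0901). It was called higher with DESeq2 (adjusted p = 0.0416) and without Sham replicate 1 (0.0108).

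Rab3a, a Rab of regulated exocytosis best known from synaptic vesicles, was a low-level gene that fell. It was at 0.705, 1.48, 0.438 and 0.728 CPM in CLP and at 4.16, 4.82, 5.13 and 4.93 CPM in Sham, with no overlap, a log2 fold change of -2.48 (SE 0.32, edgeR adjusted p = 0.000119) and -2.79 with library totals. Its relative Rab3d, found on secretory granules, averaged 14.4 ± 1.25 CPM (Sham) and 15.0 ± 1.52 CPM (CLP) (log2 fold change 0.06, SE 0.12). Rab27b, of granule and exosome release, rested on few reads: 19, 8, 27 and 20 counts in CLP and 7, 10, 11 and 9 in Sham. CLP replicate 2 fell inside the Sham range. The log2 fold change of 1.42 (SE 0.45, edgeR adjusted p = 0.026) was not called without any 1 of CLP replicates 1, 3 and 4 (adjusted p = 0.0568, 0.0649 and 0.0658) or Sham replicates 1 and 2 (0.0622 and 0.0516), nor with library totals (0.0601). Platelets also carry Rab27b. The platelet and megakaryocyte list had 4 of 5 tested markers higher, beside 19.8% of all genes. Its summed level was 19.6 to 24.4 CPM in CLP and 7.16 to 8.24 CPM in Sham. Ppbp rose from 3.35 ± 0.355 to 10.6 ± 1.36 CPM and Pf4 from 1.05 ± 0.423 to 3.54 ± 0.556 CPM, and no marker of the list was at 0. Their part in the Rab27b result was not tested. Rab27a, Rab13 and Rab37 were not called, with log2 fold changes of -0.14, 0.11 and 0.21.

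Rabs of the endoplasmic reticulum, Golgi and lipid droplets gave 2 higher and 2 lower of 10 tested, where 43.3% of all genes were called, with a median log2 fold change of 0.02. With library totals 0 were higher and 3 lower (Rab19, Rab33b and Rab2b), beside 9.18% and 46.0% of all genes. Rab1a, which runs transport from the endoplasmic reticulum to the Golgi, was the most abundant, at 222, 217, 252 and 238 CPM in CLP and 196, 171, 194 and 189 CPM in Sham. Without overlap between groups, it rose by 0.31 on the log2 scale (SE 0.08, edgeR adjusted p = 0.00657), and the value with library totals was -0.01 (edgeR adjusted p = 0.909). Rab18, of lipid droplets, rose by 0.32 (SE 0.07, from 83.9 ± 3.19 to 105 ± 7.57 CPM), and had 0.01 with library totals (edgeR adjusted p = 0.937). Rab19 was at 0.769, 1.38, 0.329 and 0.265 CPM in CLP and 3.26, 2.88, 2.33 and 3.70 CPM in Sham. The groups did not overlap, and the log2 fold change was -2.12 (SE 0.43, edgeR adjusted p = 0.00212), on 4 to 27 counts per CLP library and 40 to 90 per Sham library. Rab33b, a Golgi Rab that binds the autophagy protein ATG16L1, was at 12.6, 13.8, 19.1 and 14.5 CPM in CLP and 18.1, 19.8, 20.7 and 18.9 CPM in Sham, with CLP replicate 3 inside the Sham range. Its log2 fold change of -0.37 (SE 0.13, edgeR adjusted p = 0.0434) was not called when any single library other than CLP replicate 3 was left out (adjusted p = 0.0662 to 0.125) or with DESeq2 (0.0528). The other 6, Rab1b, Rab2a, Rab2b, Rab6a, Rab6b and Rab30, had log2 fold changes of -0.26 (Rab2b) to 0.17 (Rab6a) and were not called. Rab6a was called higher without CLP replicate 3 (edgeR adjusted p = 0.0385). Rab6a shares 19.0% of its exon length with Mrpl48 on the opposite strand, and Mrpl48 averaged 10.6 ± 1.16 CPM (Sham) and 10.1 ± 1.08 CPM (CLP).

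The 3 remaining Rabs were Rab23, Rab40c and Rab28. Rab23, which restrains Hedgehog signalling, was at 1.54, 1.58, 2.25 and 1.26 CPM in CLP and at 5.97, 5.52, 4.66 and 7.11 CPM in Sham. It fell by 1.80 on the log2 scale (SE 0.23, edgeR adjusted p = 0.00011) with no overlap. Rab40c, a Rab with a SOCS box that joins ubiquitin ligase complexes, was at 5.70, 4.09, 7.51 and 5.69 CPM in CLP and at 14.5, 13.4, 11.5 and 14.9 CPM in Sham, and fell by 1.24 (SE 0.18, edgeR adjusted p = 0.00026), also with no overlap. Rab28, a ciliary Rab and the most abundant of the 3, was at 19.8, 20.7, 21.0 and 17.8 CPM in CLP and 23.4, 20.6, 21.7 and 25.2 CPM in Sham. It was not called (log2 fold change -0.20, SE 0.10, edgeR adjusted p = 0.137). With library totals all 3 were lower, beside 46.0% of all genes, and Rab28 had -0.51 (edgeR adjusted p = 0.0022).

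The 7 small rises, Rab5a, Rab5c, Rab31, Rab7, Rab11b, Rab1a and Rab18, lay between 0.22 and 0.38 on the log2 scale, about as large as the shift of all genes between the scalings. With library totals their log2 fold changes were -0.10 to 0.07 and 0 of 7 were called (edgeR adjusted p = 0.171 to 0.937). Rab20, Rab21, Rab12, Rab8b and Rab10 were higher under every alternative run. For each of them Sham replicate 4 was the lowest Sham library. Without that library their log2 fold changes were 0.90, 0.50, 1.00, 0.95 and 0.96, all called. Rab39, Rab19, Rab3a, Rab23, Rab40c and Rab29 were called lower under every alternative in which they were tested; Rab19, Rab3a and Rab23 do not reach the filter at a mean of 5 CPM. The 24 genes not called had log2 fold changes of -0.33 to 0.44 (edgeR adjusted p = 0.0762 to 0.966), 4 of them with an unadjusted p below 0.05. Of these 24 genes 12 were called lower with library totals, beside 46.0% of all genes. A missed threshold does not show that these genes were the same in both groups.

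Ratios inside a library do not move with the scaling. As a share of all Rab counts per kilobase of exon, the secretory group made up 19.9% to 22.3% in Sham and 25.1% to 32.2% in CLP, so that every CLP library lay above every Sham library (21.3% ± 1.02 and 29.2% ± 3.08, SD, n = 4 each). Within it the mean shares of Rab8b, Rab10 and the scarce Rab27b were higher in CLP and those of the other 6 were lower, for example Rab8a at 1.65% ± 0.104 in Sham and 1.37% ± 0.0722 in CLP and Rab3a at 0.236% ± 0.0299 and 0.0312% ± 0.0188. The early endosome share was 31.5% ± 1.14 in Sham and 33.4% ± 2.12 in CLP, with overlap. The late endosome share went from 19.0% ± 1.23 to 15.0% ± 0.266, the endoplasmic reticulum and Golgi share from 18.3% ± 0.749 to 15.0% ± 0.922, and the recycling share from 8.83% ± 0.0842 to 6.91% ± 0.115, each without overlap. The shares sum to the whole, so a gain in one group lowers the others. By gene, Rab5c led in Sham with 13.2% ± 0.565, above every library's value for Rab10 (9.44% ± 0.66), Rab8b (8.93% ± 0.704) and Rab20 (8.34% ± 1.85), which overlapped with each other. In CLP the order of means was Rab10 (14.0% ± 1.36), Rab8b (13.0% ± 1.92), Rab20 (12.6% ± 0.938) and Rab5c (12.0% ± 0.905), and the ranges of these 4 overlapped. All Rab members together made up 0.341% to 0.362% of the counts in Sham and 0.351% to 0.406% in CLP.

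**Figure D3:**
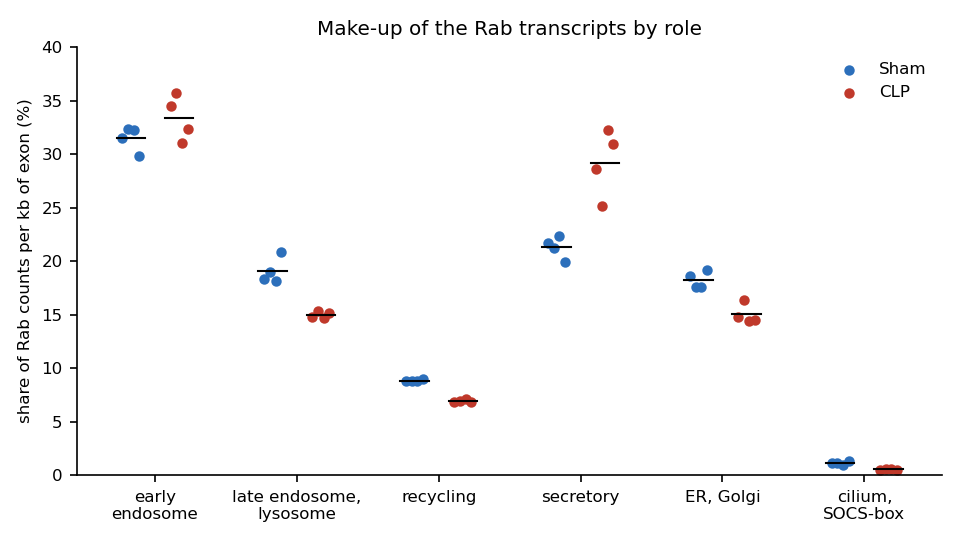
Share of each role in the Rab counts per kilobase of exon (percent, vertical axis) in the 4 Sham and 4 CLP libraries; points are libraries and bars are group means. The secretory share is higher in every CLP library, the late endosome, recycling and Golgi shares are lower, and the early endosome share overlaps between groups.

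For related Rab genes, the log2 ratio of the counts of 2 relatives in each library was compared for 14 of 19 listed pairs, those with both genes among the members, by a two-sided exact permutation test over the 70 assignments of the libraries. The smallest p this test can give is 0.0286, and 0 of 14 pairs passed after Benjamini-Hochberg adjustment. With that limit a pair can pass only where most of the 14 pairs reach the smallest p. The count of 0 therefore does not show that the ratios were alike. For 7 pairs the groups did not overlap (exact p = 0.0286, adjusted 0.0571 for each). Of single genes, 41.5% of all those tested did not overlap between groups, and no share was computed for other gene pairs. Some of the 7 pairs share a gene, such as Rab8a or Rab5b, and so are not independent. The log2 ratio of Rab8a to Rab8b was -2.69 to -2.27 in Sham and -3.47 to -2.84 in CLP, a difference of -0.80, so Rab8b held 5.47 times the counts of Rab8a in Sham and 9.50 times in CLP. Rab8a against Rab10 differed by -0.84, with Rab10 at 4.29 times Rab8a in Sham and 7.66 times in CLP. Rab3a to Rab3d differed by -2.65, the most of any pair: Rab3d held 3.02 times the counts of Rab3a in Sham and 19.0 times in CLP. Within the Rab5 trio, the difference was 0.39 for Rab5a to Rab5b and -0.31 for Rab5b to Rab5c, and the ratio of Rab5a to Rab5c overlapped between groups (0.08, exact permutation p = 0.314). It was -0.53 for Rab22a to Rab31 and 0.40 for Rab2a to Rab2b. The ratios of Rab1a to Rab1b, Rab6a to Rab6b, Rab7 to Rab7b, Rab11a to Rab11b, Rab27a to Rab27b and Rab32 to Rab38 overlapped between groups.

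**Figure D4:**
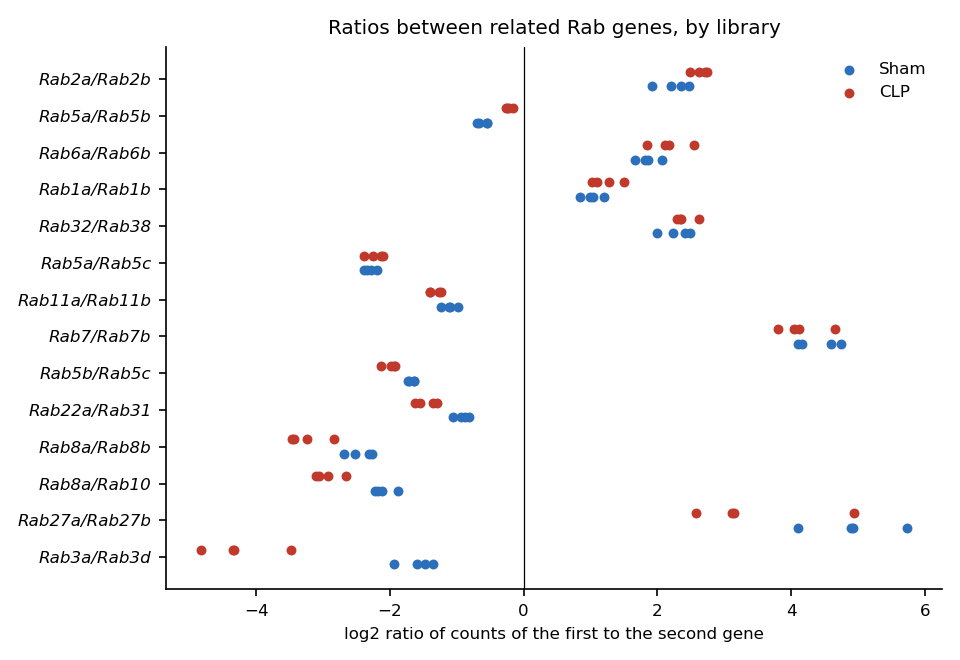
Log2 ratio of the counts of the first to the second gene (horizontal axis) for 14 pairs of related Rab genes, 1 point per library. The groups are apart for 7 pairs, among them Rab8a/Rab8b, Rab8a/Rab10 and Rab3a/Rab3d, and overlap for the other 7. Of all single genes, 41.5% have groups that do not overlap.

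The regulators and effectors of Rab proteins were taken from a list of 138 genes, of which 127 were tested. In CLP 25 of them were higher and 42 lower (52.8%, beside the 43.3% over all genes), with a median log2 fold change of -0.15. Over all genes, too, more were called lower (23.5%) than higher (19.8%). Scaling to library totals gave 13 higher and 74 lower, beside 9.18% and 46.0% of all genes. The 37 GEF and DENN-domain genes gave 9 higher and 11 lower (54.1% called, beside 43.3% of all genes). Rabgef1, the Rab5 exchange factor Rabex-5, rose from 20.4 ± 1.72 to 90.1 ± 15.0 CPM (by 2.14 on the log2 scale, SE 0.12, edgeR adjusted p = 8.87e-07). Dennd4a, of a DENN family that activates Rab10, had the highest CPM of the list in CLP (in Sham it came after Rab3il1). It rose from 268 ± 46.6 to 1069.9 ± 107 CPM (2.00, SE 0.13, edgeR adjusted p = 1.87e-06). Rab3il1 fell from 293 ± 19.1 to 122 ± 25.2 CPM (-1.26, SE 0.13, edgeR adjusted p = 3.13e-05), the lowest log2 fold change of this list. The change of Rab3il1 is given with its values already seen. C9orf72, a DENN protein that works in a complex with Smcr8 in autophagy, rose from 54.0 ± 2.79 to 159.6 ± 14.2 CPM (1.56), while Smcr8 was at 126 ± 3.07 and 135 ± 18.4 CPM and was not called (edgeR adjusted p = 0.435); Smcr8 was named after its values were seen. Dennd3, the exchange factor of Rab12, was at 7.18 ± 0.432 and 10.5 ± 3.79 CPM (0.55, edgeR adjusted p = 0.0602) and was called higher without CLP replicate 3 (0.0121) and with DESeq2 (0.0277).

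Of 37 GAP and TBC genes 6 were higher and 13 lower (51.4% called, beside 43.3% of all genes). Tbc1d30, a GAP of Rab8, rose from 21.9 ± 2.48 to 71.9 ± 24.4 CPM (log2 fold change 1.72, edgeR adjusted p = 0.000383) and Tbc1d10a, a GAP of Rab27a and Rab35, from 44.9 ± 8.18 to 102 ± 2.22 CPM (1.19, edgeR adjusted p = 1.74e-05). Evi5l fell from 15.0 ± 1.54 to 8.91 ± 0.789 CPM (-0.75, edgeR adjusted p = 0.000592). Tbc1d2b, with the highest CPM, was at 515 ± 25.3 and 549.6 ± 17.5 CPM and not called (0.09). In the list of prenylation and GDI genes, Gdi2, a GDP dissociation inhibitor, averaged 584 ± 48.4 CPM (Sham) and 664 ± 71.6 CPM (CLP) and was not called (0.19, edgeR adjusted p = 0.137). It was called higher without CLP replicate 3 (edgeR adjusted p = 0.0291).

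Effectors gave 9 higher and 18 lower of 46 (58.7% called, beside 43.3% of all genes). Rab11fip1, which binds Rab11 and drives recycling of receptors and integrins, had the largest change of any listed regulator or effector, from 23.5 ± 3.89 to 182 ± 35.5 CPM (2.95 on the log2 scale, SE 0.16, edgeR adjusted p = 1.46e-06), beside Rab11a and Rab11b at -0.01 and 0.22. Eea1, the tether that Rab5 recruits for early endosome fusion, rose from 75.8 ± 2.27 to 153 ± 17.9 CPM (1.01, SE 0.09, edgeR adjusted p = 9.11e-06). Rufy3, a RUN domain protein, rose from 74.0 ± 12.0 to 187 ± 17.2 CPM (1.34). Rubcn, which binds Rab7, restrains endosome and autophagosome maturation and is required for LC3-associated phagocytosis, fell from 56.3 ± 4.92 to 20.0 ± 4.81 CPM (-1.49, SE 0.15, edgeR adjusted p = 3.13e-05). Lrrk1, the kinase that phosphorylates Rab7, had the highest CPM of the listed effectors, at 242 ± 12.2 and 274 ± 22.0 CPM, and was not called (0.18, edgeR adjusted p = 0.0869). It was called higher without CLP replicate 1 (0.0484) and with DESeq2 (0.0338).

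**Figure D5:**
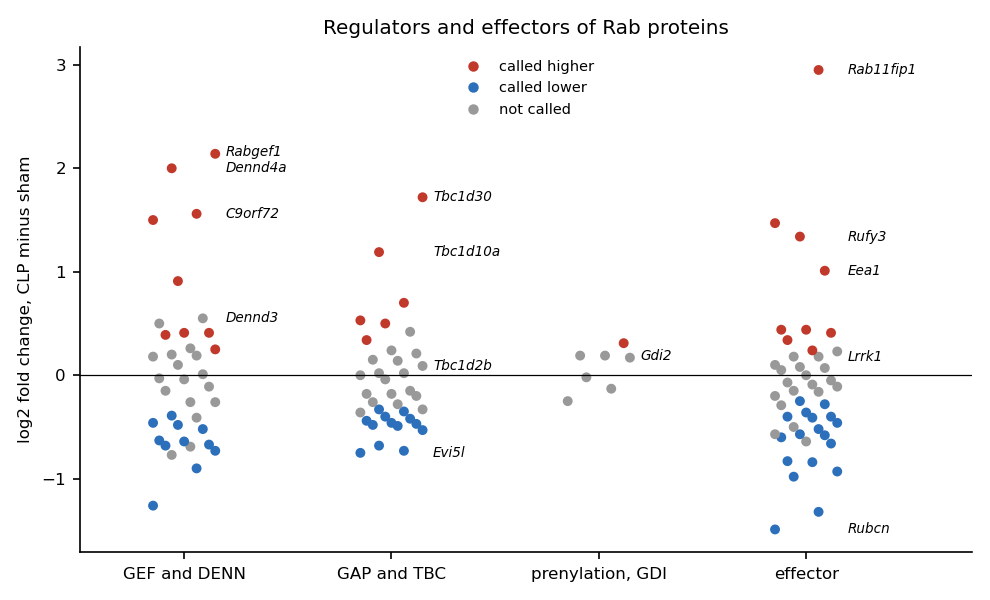
Log2 fold change (CLP minus Sham, vertical axis) of 127 regulators and effectors of Rab proteins in 4 lists; each point is a gene, coloured by its edgeR call, and most of the genes described are named. Rab11fip1, Rabgef1 and Dennd4a are the highest points, at 2.95, 2.14 and 2.00. More genes are called lower (42) than higher (25), as over all genes (23.5% lower and 19.8% higher).

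Markers of other cells that a sort could hold were summed in the same way. Beside the counts of called markers, the shares over all genes were 19.8% higher and 23.5% lower. The endothelial and stromal list, led by Pecam1, was at 790.2 to 881 CPM in CLP and 796 to 879 CPM in Sham (2 of 7 tested higher, Col1a1 and Col3a1), and the erythroid list at 713 to 1238 and 269 to 1339 CPM (3 of 6 tested higher). Neutrophil markers summed to 10.6 to 27.8 CPM in CLP and 3.91 to 15.8 CPM in Sham (3 of 12 tested, 2 higher). B cell markers summed to 36.1 to 48.7 and 48.2 to 53.9 CPM (1 of 8 lower, Cd79b), and T and NK cell markers to 108 to 132 and 100.4 to 106 CPM (1 of 10 lower, Ncr1). Dendritic cell markers summed to 58.9 to 75.3 and 36.2 to 53.8 CPM, with 2 of 6 higher (Zbtb46, and Ccr7 at 9.78 and 26.9 CPM in Sham and CLP) and 1 lower (Clec9a). Monocyte markers summed to 13.9 to 18.5 and 12.1 to 14.1 CPM (1 of 5 higher, Fn1). Of the mast cell and basophil list Mcpt8 and Fcer1a were at 0. Whether other cells had a part in the Rab results was not tested.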

How the data were processed

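The authors deposited raw counts, 1 row per Ensembl gene and 1 column per library. The submitters' processing notes name STAR 2.7.10b, featureCounts, FastQC and DESeq2 and the build mm39 without their roles. The annotation release and strand setting were not given in the sources used here. Symbols and exon lengths came from GENCODE mouse release 21, which gave a symbol to 52081 of 55414 rows (rows without one held 0.19% to 0.912% of the counts). The members, roles and gene lists were chosen with earlier results of these data known.

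Counts were tested with edgeR 4.0.16 (R 4.3.3): filterByExpr, TMM scaling and a robust quasi-likelihood F-test, with Benjamini-Hochberg adjustment over 14004 genes and a threshold of 0.05. The SE was computed as |log2 fold change| / √F. The method was tested on simulated data in which few genes changed, in either direction. That test does not bear on the choice of scaling. CPM were computed on TMM-scaled totals (mean ± SD, 4 libraries). Pair ratios add 0.5 to each count. Every called Rab gene is named; values of each library are given for called genes with at least a 2-fold change, for the 2 largest changes of each role and for its most abundant gene. From each regulator list the 3 largest called changes at a mean of at least 5 CPM and the most abundant gene are named, and Dennd3, Rubcn, Eea1 and Gdi2 always; 1 result of these lists is not reported here. No 2 libraries of a group were near-copies (chi-square over degrees of freedom at least 9.25). Alternatives were DESeq2 1.42.0, its size factors, library totals, other filters, a replicate block and leaving out each library.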

Additional observations from a re-analysis of the deposited data

Results flagged for a closer look

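Among 120 sets of 4 libraries (60 genes, each group), 6 held a library far from the other 3, about the 1 in 20 that chance gives. CLP replicate 3 was low for Rab21 (132 CPM, the others 149 to 151), for Rab29 (12.8 CPM, the others 18.9 to 20.1) and for Rab34 (5.97 CPM, the others 7.68 to 8.01), and high for Rab8a (81.3 CPM, the others 78.2 to 78.7). CLP replicate 1 was high for Rab20 (233 CPM, the others 210.2 to 212). Sham replicate 4 was low for Rab43 (16.1 CPM, the others 21.5 to 22.6).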

How the results depend on the processing

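With library totals in place of TMM, 5 Rab genes were higher and 19 lower. Over all genes 9.18% were higher and 46.0% lower under that scaling. By role, the counts higher and lower were early endosome 2 and 2, late endosome 1 and 7, recycling 0 and 3, and secretory 2 and 1. They were 0 and 3 for the endoplasmic reticulum and Golgi group and 0 and 3 for the cilium and SOCS-box group. Regulators and effectors gave 13 and 74. Log2 fold changes that turned negative under that scaling were those of Rab1b (-0.22), Rab2a (-0.17), Rab6a (-0.15), Rab1a (-0.01), Rab5c (-0.01), Rab31 (-0.02), Rab24 (-0.26), Rab14 (-0.22), Rab11b (-0.10), Rab3d (-0.25), Rab13 (-0.21), Rab8a (-0.15), Rab37 (-0.11), Lrrk1 (-0.14), Tbc1d2b (-0.22) and Gdi2 (-0.13). At a mean of at least 5 CPM, where 38 Rab genes were tested, 4 Rab genes were lower, with 1 of the endoplasmic reticulum and Golgi, 1 of the cilium and SOCS-box group and 0 secretory, because low genes leave the test. With DESeq2 and with its size factors 1 gene of the endoplasmic reticulum and Golgi group was lower, and Rab5b (0.03), Rab43 (0.01), Rab11a (0.03) and Rab35 (0.03) turned positive. Without a filter 0 recycling Rabs were higher. Leaving out 1 library gave 12 to 14 Rab genes higher and 6 to 8 lower, 1 to 2 lower of the endoplasmic reticulum and Golgi group, 0 to 1 lower of the early endosome group (Rab22a without CLP replicate 3), and 24 to 28 regulators and effectors higher and 30 to 41 lower. Log2 fold changes near 0 changed sign when 1 library was left out: Rab11a (-0.03 to 0.07), Rab13 (-0.12 to 0.28), Rab27a (-0.22 to 0.02), Rab30 (-0.24 to 0.30), Rab35 (-0.07 to 0.07), Rab43 (-0.11 to 0.05), Rab5b (-0.04 to 0.05) and Rab9 (-0.16 to 0.04). Beyond the filter at 5 CPM, the cause of these changes was not tested. Of the pairs, 0 passed with a pseudocount of 1 or 5 or without any 1 library. The smallest p possible is 0.0286 in these runs too, so a pair could pass only where most pairs reach it. With the replicate block the smallest p possible is 0.125, so no pair could pass there.

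The values gave no clear sign that the replicate numbers pair the libraries. Correlations of same-numbered libraries were 0.074, -0.038, 0.261 and -0.192, and only number 3 correlated best with its own. These correlations cannot show whether same-numbered libraries were handled together. With the replicate block 13 Rab genes were higher and 7 lower, and Rab7b was not called (edgeR adjusted p = 0.0561). Genes near or under 1 CPM, such as Rab27b, Rab19 and Rab3a in CLP, rest on few reads and carry large counting error.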
